A study of Mus musculus with 8 samples.

Results

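Ubiquitin-conjugating (E2) enzymes were described in mouse bone marrow multipotent progenitors (MPPs), with the question of whether Ube2q2 stood alone among them. The genes were taken by name: every gene whose symbol starts with Ube2, except 1 with the pseudogene ending -ps. There were 40 such genes among 37980 rows of the gene table. Of these, 32 had a mean of 10 or more normalised counts over the 8 libraries and are described here, and each of the 32 reached 10 in all 8 libraries. They comprised 31 E2 enzymes or E2 variants and Ube2cbp (also named Ube3d), which binds an E2 but is not one itself. The other 8 (Ube2d2b, Ube2d4, Ube2dnl1, Ube2dnl2, Ube2nl, Ube2ql1, Ube2u and the antisense transcript Ube2uos) were listed at 0 in every library. A count of 0 allows up to 3 reads, which equals 2.66 to 3.54 normalised counts depending on the library and covers counting error only.

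RNA of MPPs from mice that carry the NUP98-HOXA10hd fusion (NA) was compared with RNA of MPPs from wild-type (WT) mice, with 4 libraries in each group. NA mice were NA LSL/+; Vav-Cre animals, in which Cre removes a stop in front of the fusion at the Rosa26 locus and Vav drives Cre in blood cells, whereas WT mice lacked the fusion. Both were on a C57BL/6 background, and each library was amplified from 1000 cells sorted as lineage-negative, CD48-, c-kit+, Sca1+, CD135+ and CD150-. Neither age nor sex was given in the labels, and nothing in them states that the 4 libraries of a group came from separate mice, so the p-values measure the spread between these libraries, which may be technical.

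Ubiquitin is attached to proteins by a relay of enzymes. An E1 enzyme activates ubiquitin, an E2 carries it as a thioester on a cysteine, and an E3 ligase brings the loaded E2 to the substrate. The E2 often decides which chain is built: chains through lysine 48 mark proteins for the proteasome, and chains through lysine 63 serve in signalling and DNA repair. Related E2 enzymes carry a ubiquitin-like protein, such as NEDD8 or ISG15, in place of ubiquitin. Blood progenitors use the system to set the amounts of cell cycle regulators, transcription factors and DNA repair proteins.

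Promoter sequence is shown for Ube2q2, for its closest relative Ube2q1 and for Ube2g1, the Ube2 gene whose difference held best, so that the genes can be compared by sequence. RefSeq promoter windows (build GRCm38.p6, 250 bases before to 50 after a start site) were at hand for 25 of the 32 genes, 36 windows in all. Each run below is the 250 bases before a start site, on the plus strand and outside annotated exons (that of Ube2q2 is in the first intron of its main transcript), and the capitals mark matches to the motifs named afterwards.
Ube2q2, chr9:55149833-55150082: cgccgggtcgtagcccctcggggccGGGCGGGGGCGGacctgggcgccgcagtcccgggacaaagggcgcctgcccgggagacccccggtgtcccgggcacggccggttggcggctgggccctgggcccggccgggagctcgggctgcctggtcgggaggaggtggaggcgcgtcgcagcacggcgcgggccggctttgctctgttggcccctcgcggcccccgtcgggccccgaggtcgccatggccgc
Ube2q1, chr3:89773359-89773608: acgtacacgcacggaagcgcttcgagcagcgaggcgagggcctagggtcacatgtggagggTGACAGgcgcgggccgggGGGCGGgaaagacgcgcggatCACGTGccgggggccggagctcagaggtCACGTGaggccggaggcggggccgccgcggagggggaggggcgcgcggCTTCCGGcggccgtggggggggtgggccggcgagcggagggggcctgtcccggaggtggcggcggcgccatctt
Ube2g1, chr11:72607011-72607260: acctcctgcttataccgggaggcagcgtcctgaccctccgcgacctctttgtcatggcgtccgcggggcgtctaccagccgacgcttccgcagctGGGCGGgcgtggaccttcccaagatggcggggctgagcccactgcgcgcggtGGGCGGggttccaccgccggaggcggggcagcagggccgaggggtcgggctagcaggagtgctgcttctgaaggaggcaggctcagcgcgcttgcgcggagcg

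The motifs searched, on both strands, were the GC box GGGCGG, the CCAAT box CCAAT, the TATA box TATAAA, the E-box CACGTG, the cAMP response element TGACGTCA, the AP-1 element TGANTCA, the ETS element CCGGAAG, the cell cycle homology region TTTGAA, the MEIS core TGACAG and the posterior HOX core TTTATG. The printed stretches of Ube2q2 and Ube2g1 each held 2 GC boxes and no other motif of the list, and that of Ube2q1 held 1 GC box, 2 E-boxes, an ETS element and a MEIS core. The whole 300-base window of the same Ube2q2 start site, with the 50 bases after it, held 3 GC boxes and also a MEIS core, a motif present in 8 of the 36 Ube2 windows and in 19.2% of all windows. A second RefSeq window of Ube2q2 lies inside an annotated first exon, is not printed and held 4 GC boxes. GC boxes were present in 28 of the 36 Ube2 windows, against 35.7% of the 32851 mouse promoter windows. The posterior HOX core was present in 4 of the 36 Ube2 windows, those of Ube2h, Ube2l3 and Ube2z, against 11.9% of all windows, and was not found in either window of Ube2q2. The Ube2 windows were GC-rich, with a median of 69.3% G or C and 30 CpG sites, against 52.7% and 7 in all windows. A match is a run of letters and says nothing of binding.

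Some properties of the 8 libraries touch every comparison below. Libraries held an estimated 3876906 to 4916987 reads, and NA4, WT2 and WT3 were the shallow ones. Hoxa10, whose homeodomain forms part of the fusion, was at 324 ± 32.04 normalised counts (SD, n = 4) in NA and 139 ± 7.997 in WT. Xist lay between 0.94 and 2.80 in the NA libraries and between 869 and 1285 in the WT libraries. The Y-linked Eif2s3y lay between 516 and 667 in NA and at 0 to 0.888 in WT. Genotype and sex therefore cannot be told apart for any gene below, those of the pathway lists included. Among the Ube2 genes described, this bears most directly on the X-linked Ube2a. Among the sorting markers, Kit, Ly6a (Sca1) and Flt3 (CD135) were each above 1000 in every library and Slamf1 (CD150) lay between 3.69 and 47.9. Ly6a was lower in NA (1221 to 1408) than in WT (1482 to 1614), as was Cd48 (12.2 to 22.4 and 34.2 to 83.8), with limma adjusted p of 0.0257 and 0.00712 (0.163 and 0.0675 without NA4 and WT4). The fourth library of each group was close to a weighted sum of the other 3. After the best weighted sum, WT4 kept an excess variance of 0.000724 and NA4 one of 0.00594. The mean excess variance of a single library, estimated from pairs of the other 3 in the group, was 0.0174 and 0.0223. An independent library as variable as those would keep at least that much. WT1 (0.00532 beside 0.0125) and NA2 (0.013 beside 0.0176) were below this estimate as well, and the other 4 libraries were above theirs. Calls of the Ube2 genes and the gene lists are therefore given with and without NA4 and WT4, and the closing section gives the counts without each single library.

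Ube2q2 had the largest difference of the 32 genes. It encodes a little-studied E2 of the Ube2q family, which has a long amino-terminal extension, and lies on chr9:55148854-55207529 (plus strand; ENSMUSG00000032307). The NA libraries held 420.1, 359, 365 and 412 normalised counts, and the WT libraries 57.7, 90.6, 87.7 and 75.5. Every NA library was thus far above every WT library, and the ratio ran from 3.96 for the closest pair of libraries to 7.28 for the most distant. The means were 389 ± 31.6 and 77.9 ± 14.9 (SD, n = 4). The difference was 2.32 (SE 0.16) on the log2(normalised count + 1) scale, on which all differences below are given as NA minus WT, or 5.01-fold. The question about Ube2q2 was posed with these values known, so its difference is a description and was not tested.

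By size, Ube2q2 stood apart from the other Ube2 genes. The next difference was that of Ube2e2, at 1.005 (SE 0.23), which left a gap of 1.32. The gap to the next gene, Ube2e2 or Ube2c depending on the setting, lay between 1.03 and 1.35 under the 19 alternative settings. Some of these settings, such as the filters on low values, could not move the gap. Without NA4 and WT4 it was 1.182, with Ube2c next and Ube2q2 itself at 2.29. Among all genes Ube2q2 ranked lower, as 65 of the 11451 genes tested had a larger difference in the same direction. Its share of the summed Ube2 counts was 2.01% to 2.45% in the NA libraries and 0.404% to 0.587% in the WT libraries. The median absolute difference of the other 31 genes was 0.22, beside 0.28 for all genes tested.

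No difference of this kind was seen in the relatives or the neighbours of Ube2q2. Ube2q1, on chromosome 3, was at 993, 923, 960 and 904 normalised counts in NA and 1072, 968, 1020 and 1004 in WT. The groups overlapped and the difference was -0.10 (95% interval -0.28 to 0.07, limma adjusted p = 0.385). Ube2ql1, the remaining member of the family, was listed at 0 in all libraries. Of 7 tested genes within 500 kb of Ube2q2, 0 had an adjusted p below 0.05 (limma, with 1 at an unadjusted p below 0.05) and the differences ran from -0.23 to 0.30. In its longest transcript, 20.9% of the 50-base words also occur in the pseudogene Gm4895, which itself held at most 0.94 normalised counts in any library.

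**Figure D1:**
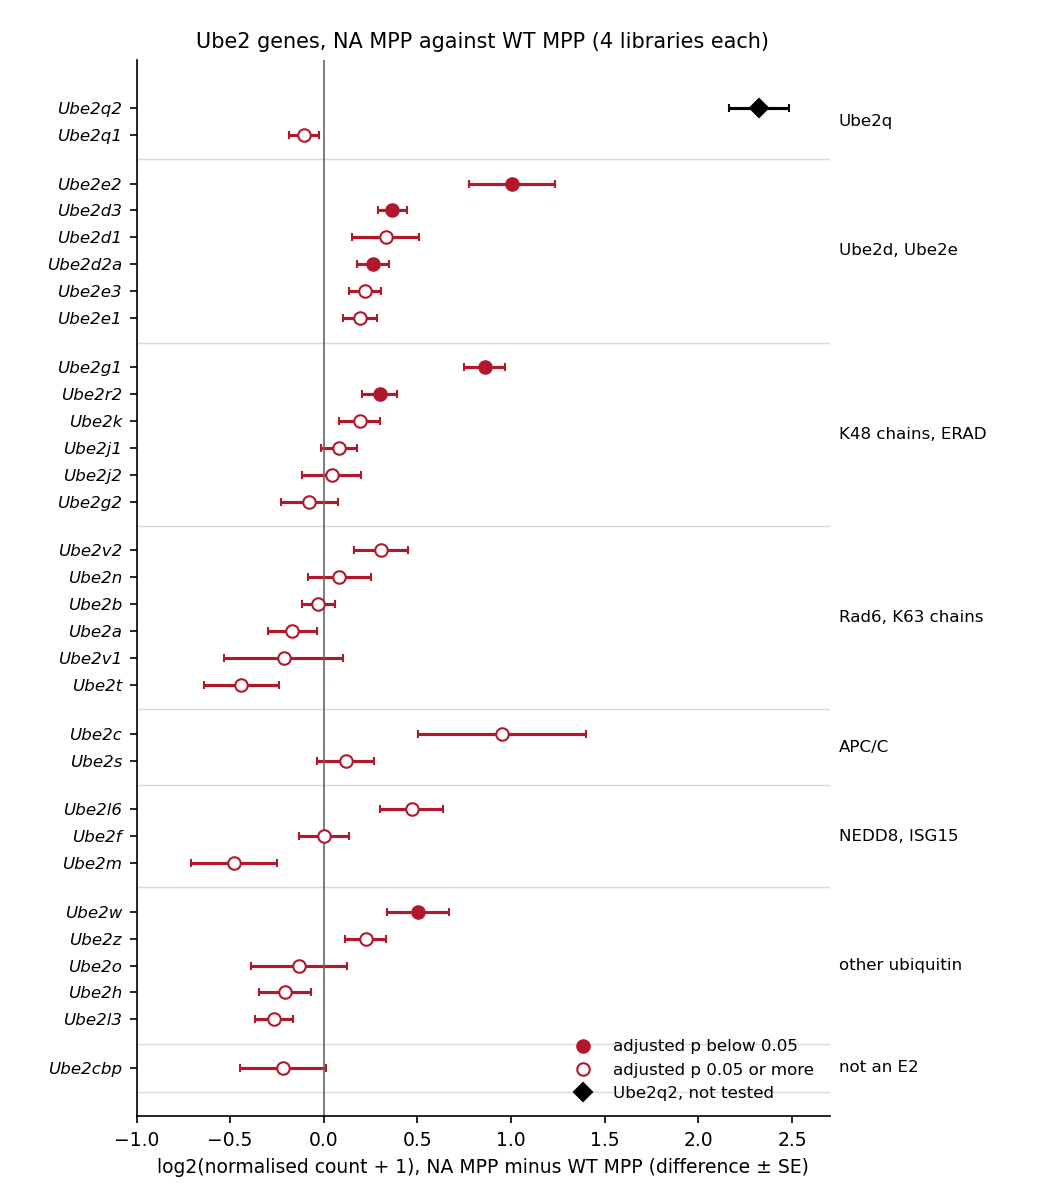
Difference between NA and WT MPPs for 31 of the 32 Ube2 genes, grouped by role, on the log2(normalised count + 1) scale; points are fitted differences, bars are ± 1 SE, filled circles have an adjusted p below 0.05 and the diamond is Ube2q2, which was not tested. Ube2q2 at 2.32 lies far to the right of Ube2e2 at 1.005, and the 6 filled genes are all higher in NA.

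Of the other 31 genes, 6 were higher in NA (Ube2g1, Ube2e2, Ube2d3, Ube2r2, Ube2d2a and Ube2w) and 0 were lower at an adjusted p below 0.05 (limma with Benjamini-Hochberg adjustment over 11451 genes). At an unadjusted p below 0.05 the counts were 8 higher and 2 lower (Ube2l3 and Ube2t). The 6 called are 19.4% of the 31, beside 17.9% of all genes called in either direction, 10.1% called higher and 7.87% called lower. Only Ube2e2 reached 2-fold, against 6.71% of all genes. The NA and WT values did not overlap for 8 of the 31: NA lay above WT for 6, beside 11.5% of all genes, and below WT for 2, beside 10.5% (22.0% in either direction). The median difference over the 31 was 0.08, beside -0.01 over all genes tested. With total-count scaling the split was 3 higher (Ube2g1, Ube2e2 and Ube2d3) and 1 lower (Ube2l3), while all genes went from 1152 higher and 901 lower to 927 higher and 1313 lower. Without NA4 and WT4 only Ube2g1 passed, when 4.58% of all genes passed in either direction and 3.31% were higher. Summed over the 31 genes, the share of the library was 0.360% to 0.379% in NA and 0.335% to 0.353% in WT. Abundant genes such as Ube2d3 (means of 2706 in NA and 2103 in WT) weigh most in this sum. Of the 31 single differences, 19 were positive and 12 negative. Fewer cells of a type and less RNA per cell cannot be told apart in such bulk samples.

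Ube2g1 was the steadiest of the called genes. It builds lysine 48 chains, among others on substrates of cullin 4 ligases, and lies on chr11:72607283-72686481. Normalised counts were 657, 636, 547 and 659 in NA and 386, 297, 350 and 346 in WT. All NA values lay above all WT values, and the difference was 0.86 (SE 0.11; 1.81-fold, limma adjusted p = 0.00016). It passed under all 19 alternatives, with an adjusted p of 0.000116 to 0.00661, the highest without NA4 and WT4. Its paralogue Ube2g2, which works in degradation at the endoplasmic reticulum (ER), overlapped between the groups with a difference of -0.08 (adjusted p = 0.765).

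The enzymes of the Ube2d and Ube2e branches, which pair with very many RING-type E3 ligases, were all on the positive side. Of 6 tested, 3 were higher in NA and 0 were lower, with a median of 0.30 and a range of 0.20 to 1.005, beside 10.1% of all genes called higher and a median of -0.01 over all genes. Without NA4 and WT4 none of these 3 calls was kept. Ube2e2 was at 137, 122, 197 and 129 normalised counts in NA and 47.9, 78.1, 96.8 and 70.1 in WT. NA3 was the highest and WT1 the lowest, but the groups did not overlap, and the difference was 1.005 (SE 0.23, limma adjusted p = 0.00885). It passed in 18 of 19 alternatives, where the adjusted p ran from 0.0059 to 0.0662, and was lost without NA4 and WT4. Ube2d3, the Ube2 gene with the highest normalised counts, held 2583, 2750, 2651 and 2839 in NA and 1897, 2334, 2049 and 2133 in WT. Every NA library exceeded every WT library, by 0.37 (SE 0.079, adjusted p = 0.00615). The call was lost without NA4 and WT4 (difference 0.35, adjusted p = 0.0679) and without the variance trend (0.37, 0.054), and with the GC trend removed the difference itself fell to 0.17 (adjusted p = 0.164), the lowest adjusted p of the alternatives being 0.0038. Ube2d2a, on chromosome 18, was at 1859, 1993, 1679 and 1985 in NA and at 1429, 1621, 1710 and 1512 in WT. NA3 fell below WT3, so the groups overlapped, and the difference was 0.26 (SE 0.086, adjusted p = 0.0489). Only 7 of 19 alternatives kept this call, with adjusted p from 0.0196 to 0.509. Removal of the GC trend left a difference of 0.08. Ube2e3 and Ube2e1 each had all NA values above all WT values, at 1762 to 2031 against 1416 to 1694 and 970 to 1094 against 765 to 952, with adjusted p of 0.0867 and 0.155. Ube2d1 overlapped between the groups, with a difference of 0.33 (adjusted p = 0.217).

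**Figure D2:**
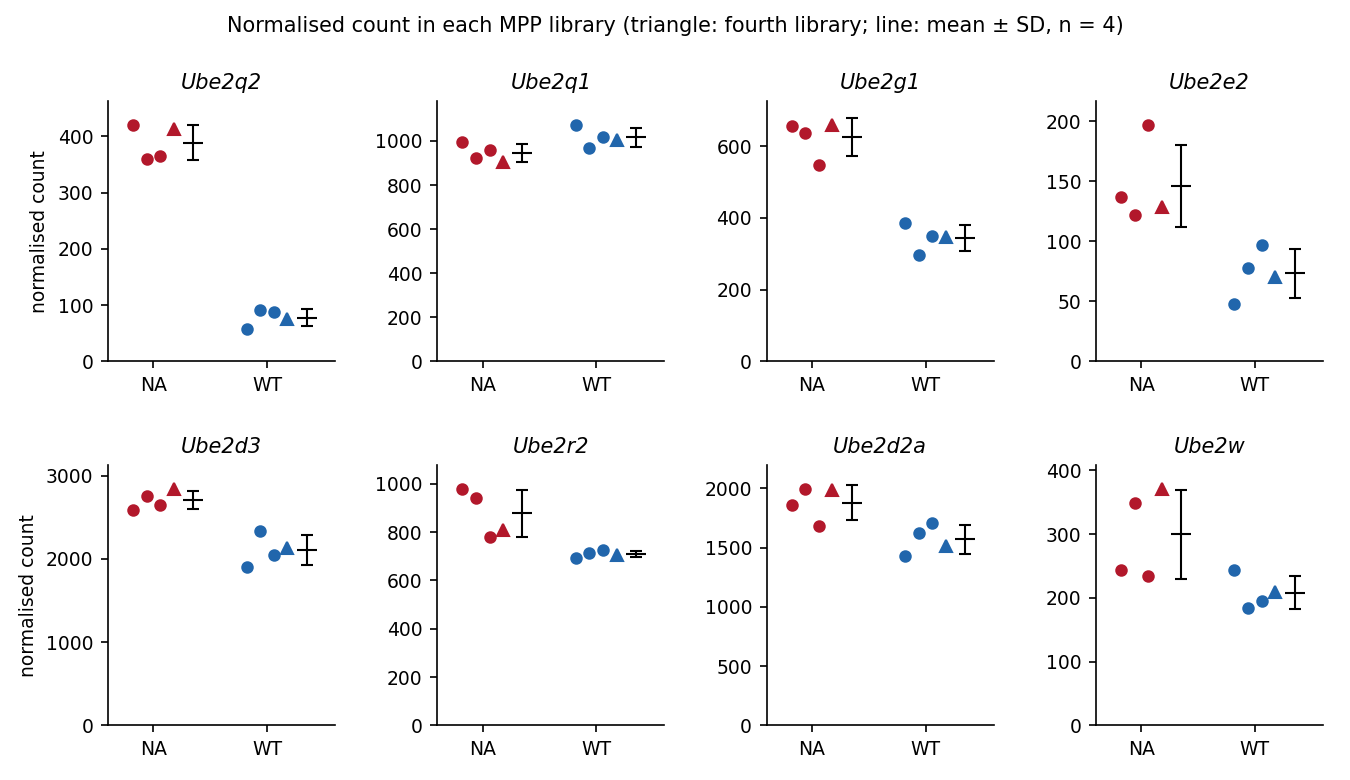
Normalised count in each of the 4 NA (red) and 4 WT (blue) MPP libraries for Ube2q2, Ube2q1 and the 6 genes called higher in NA; triangles are the fourth libraries and black bars are mean ± SD (n = 4), on axes that start at 0. The NA and WT points of Ube2q2, Ube2g1, Ube2e2, Ube2d3 and Ube2r2 do not overlap, while those of Ube2q1, Ube2d2a and Ube2w do.

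Among the 6 enzymes of lysine 48 chains and ER-associated degradation, Ube2g1 and Ube2r2 (33.3%) were higher and 0 were lower. Over all genes 10.1% were called higher. Ube2r2 serves the SCF ligases of the cell cycle. It held 978, 942, 778 and 810.2 normalised counts in NA and 694, 714, 725 and 706 in WT. WT libraries were within a narrow band just below the lowest NA library, and the difference was 0.30 (SE 0.094, limma adjusted p = 0.0413). Only 6 of 19 alternatives kept the call, with adjusted p from 0.0185 to 0.152, the highest without NA4 and WT4. Its close relative Cdc34, which also serves SCF ligases and lacks the Ube2 prefix, went the other way, at 138, 176, 168 and 131 in NA and 231, 239, 274 and 242 in WT. The groups did not overlap and the difference was -0.69 (SE 0.14, adjusted p = 0.00465, and 0.0775 without the fourth libraries). The membrane-anchored Ube2j1 and Ube2j2 and the chain builder Ube2k overlapped between the groups, with differences of 0.08, 0.04 and 0.19.

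Ube2w, which attaches a single ubiquitin to the amino terminus of proteins, was the last of the 6. It held 245, 349, 234 and 371 normalised counts in NA and 244, 185, 195 and 209.5 in WT. NA2 and NA4 were high, whereas NA1 and NA3 lay near WT1. The difference was 0.50 (SE 0.17, limma adjusted p = 0.0495), it held in 6 of 19 alternatives, and the adjusted p ran from 0.0218 to 0.3, the highest without NA4 and WT4. The others in this mixed class did not pass. They were Ube2z, which takes ubiquitin from the E1 Uba6 (0.22), Ube2o, an E2 and E3 in 1 protein (-0.13), Ube2h (-0.21) and Ube2l3.

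Ube2l3 hands ubiquitin to HECT-type and RBR-type ligases. It was at 533, 504, 531 and 532 normalised counts in NA and 595, 583, 749 and 608 in WT. All NA values were below all WT values, with WT3 well above the rest. The difference was -0.26 (SE 0.10, limma adjusted p = 0.0834). It passed with total-count scaling (-0.33, adjusted p = 0.0328) and with the GC trend removed (-0.36, adjusted p = 0.0234), and the adjusted p reached 0.266 without NA4 and WT4. On the opposite strand Ube2l3 overlaps Ydjc, at a mean of 125, and strand use in the counting was not stated.

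Of the 6 Rad6-type and lysine 63 chain enzymes 0 passed the test (limma, with 1 at an unadjusted p below 0.05), and their median was -0.10. Ube2b, a Rad6 homologue that ubiquitinates histone H2B and the replication clamp PCNA, ranged from 1126 to 1349 normalised counts in NA and from 1170 to 1376 in WT. These ranges nearly coincided, and the difference was -0.03 (95% interval -0.22 to 0.16). Its X-linked twin Ube2a stood at 220 to 271 and 244 to 322, a difference of -0.17 (interval -0.45 to 0.11). Ube2a shares its locus with the opposite-strand gene C330007P06Rik, which was itself higher in NA (0.45, adjusted p = 0.0352). Ube2n, the lysine 63 chain enzyme, differed by 0.08 and its partner Ube2v2 by 0.31 (adjusted p = 0.155). Ube2t, the E2 of the Fanconi anaemia repair pathway, lay between 57.9 and 82.7 in NA and between 85.2 and 122 in WT. The groups did not overlap, NA being lower, yet the difference of -0.44 (SE 0.20) did not pass (adjusted p = 0.145).

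Ube2v1, the inactive partner of Ube2n, was nearest to the limit of 10 from above, with a mean of 28.4 in NA and 32.1 in WT. Its libraries held 32.7, 31.0, 33.2 and 16.5 in NA and 33.7, 27.2, 31.9 and 35.5 in WT. Only NA4 stood out, and the difference of -0.21 became 0.07 without NA4 and WT4. Of its longest transcript, 83.2% of 50-base words occur in other genes, foremost in the read-through gene Gm20431, so its counts are uncertain. Ube2m, with a mean of 47.5 in NA and 66.2 in WT, was next, and every gene on the other side of the limit was listed at 0.

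The enzymes of the anaphase-promoting complex, Ube2c (chain initiation) and Ube2s (chain elongation), did not pass, nor did either at an unadjusted p below 0.05. Ube2c was low and scattered, at 80.3, 118, 38.8 and 82.7 normalised counts in NA and 59.5, 12.5, 46.7 and 58.6 in WT. NA3 was below 3 of the 4 WT libraries and WT2 was far below the others. Its difference of 0.95 had an SE of 0.45 and a 95% interval from -0.01 to 1.92 (adjusted p = 0.160). Over the alternatives it ran from 0.44, without WT2, to 1.26. Ube2s differed by 0.12 and overlaps the abundant Rpl28 on the opposite strand. Of 20 proliferation markers, 3 were higher in NA (Aurkb, Plk1 and Rrm2, 15% beside 10.1% of all genes) and 0 were lower. None of the 3 passed without NA4 and WT4 (adjusted p of 0.0582, 0.2105 and 0.0780). The 20 markers summed to 5072 to 5583 in NA and 4767 to 5639 in WT. The part of proliferation in the Ube2c values was not tested.

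The enzymes described for ubiquitin-like proteins were Ube2m and Ube2f for NEDD8 and Ube2l6 for ISG15, and 0 of these 3 passed (limma, with Ube2l6 alone at an unadjusted p below 0.05). Ube2f overlapped between the groups, at 226 to 313 in NA and 240.1 to 301 in WT (difference 0.00). Ube2m stood at 56.0, 51.7, 44.3 and 37.8 in NA and 65.7, 75.9, 68.3 and 55.0 in WT. Only WT4 reached into the NA range, and the difference was -0.48 (SE 0.23, limma adjusted p = 0.163). Ube2l6, an interferon-induced gene, held 228, 257, 282 and 234 in NA and 148, 256, 179 and 154 in WT. WT2 lay at the level of the NA libraries, and the difference of 0.47 (SE 0.17) did not pass (adjusted p = 0.0715) except without WT2 (0.64, adjusted p = 0.01, with up to 0.295 under the other alternatives). Among 15 interferon response genes 0 were higher and 2 lower in NA, or 13.3%, beside 7.87% of all genes called lower. These were Irf7 at -1.18 and Ifi44 at -0.40, with Ifi44 lost without NA4 and WT4 (adjusted p = 0.1204). The list summed to 3066 to 3602 in NA and 3793 to 4421 in WT. The part of an interferon response in these values was not tested.

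**Figure D3:**
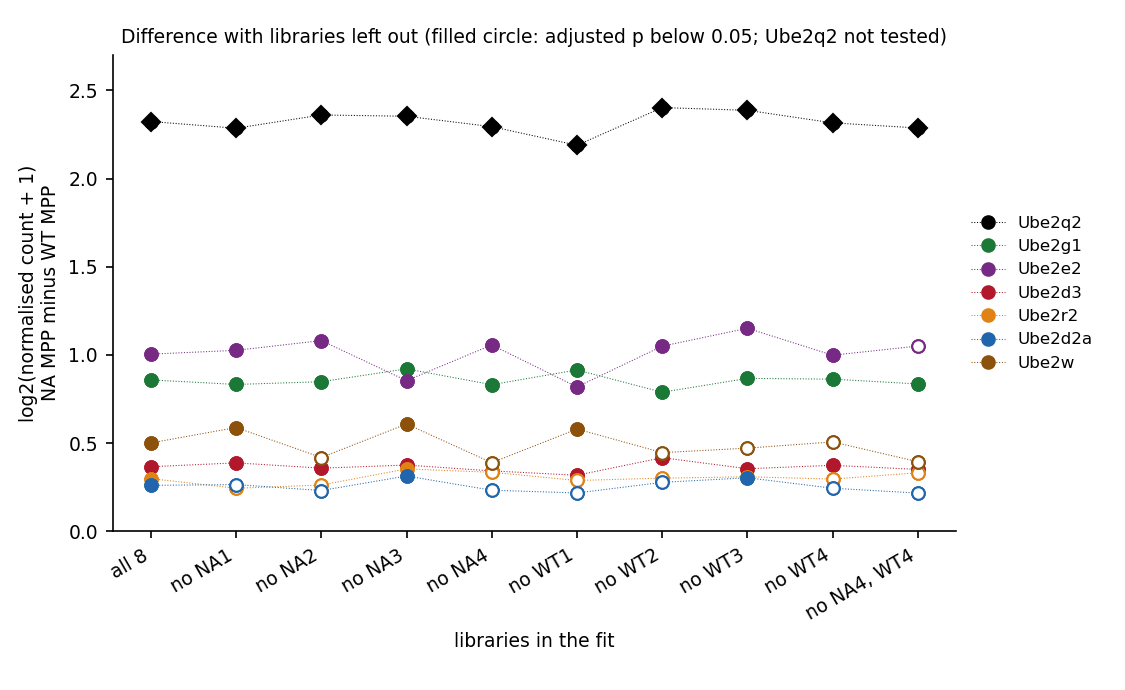
Difference between NA and WT MPPs for Ube2q2 and the 6 called genes with all libraries and with libraries left out, on the log2(normalised count + 1) scale; filled circles have an adjusted p below 0.05, diamonds are Ube2q2 and dotted lines only join the points of a gene. Ube2q2 stays between 2.19 and 2.40, Ube2g1 is filled throughout, and without NA4 and WT4 the other 5 are open.

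Across the family, levels were spread widely once divided by transcript length (the longest protein-coding transcript, in kilobases). Ube2e3, Ube2b, Ube2d2a, Ube2e1 and Ube2d3 led, with 627 to 772 normalised counts per kb over all libraries. These 5 lay close together, and Ube2q1 followed at 319 per kb. Ube2o, Ube2v1 and Ube2c were lowest, at 11.6, 14.8 and 28.4 per kb. Ube2q2 ranked 23 of 32 at 67.5 per kb, from a level of 22.5 per kb in WT and 113 per kb in NA. In WT its level was thus close to that of Ube2c, and in NA it lay between those of Ube2g2 and Ube2d1.

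**Figure D4:**
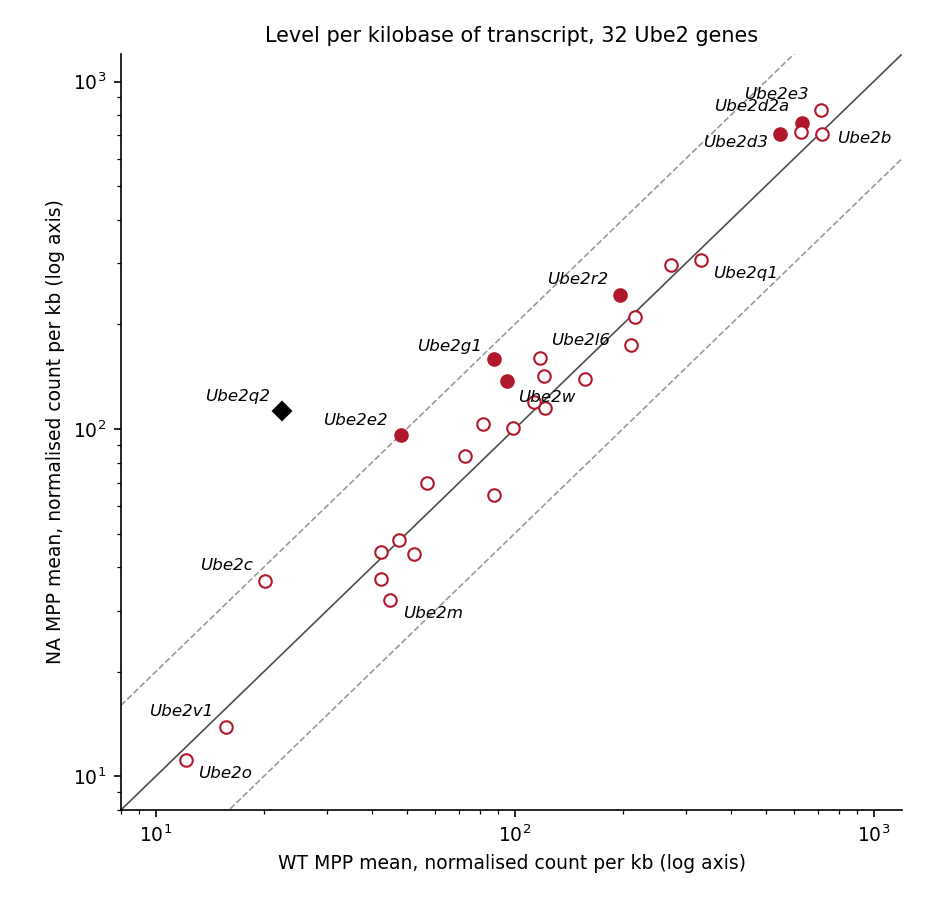
Mean level per kilobase in NA MPPs against WT MPPs for the 32 Ube2 genes, both axes logarithmic; the solid line marks equal levels, dashed lines a 2-fold difference, filled circles an adjusted p below 0.05 and the diamond Ube2q2, which was not tested. Most genes sit near the solid line from Ube2o at 11.6 to Ube2e3 at 772 per kb, and Ube2q2 lies above the upper dashed line at 113 in NA and 22.5 in WT.

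The rest of the pathway was read from lists of ubiquitin-like proteins, E1 enzymes, E2-fold proteins with other names and E3 ligases or partners. Of 77 genes tested, 12 were higher and 7 lower in NA, or 24.7%, beside the 17.9% of all genes, and 7 passed without NA4 and WT4. Of 12 ubiquitin and ubiquitin-like genes, Sumo3 alone passed (0.29, limma adjusted p = 0.0442, and 0.183 without NA4 and WT4). The ubiquitin genes Ubb and Rps27a overlapped between the groups, with differences of -0.03 and -0.12.

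Of 10 E1 genes tested, 2 were higher and 2 lower, or 40%, beside 17.9% of all genes. Only Atg7 kept its call without NA4 and WT4, when 4.58% of all genes passed. Uba6, the E1 that loads Ube2z, was at 120, 154, 128 and 158 normalised counts in NA and 56.8, 53.2, 89.9 and 47.0 in WT. All NA libraries were above all WT libraries, by 1.20 (SE 0.22, adjusted p = 0.00219, and 1.03 with 0.0545 without NA4 and WT4), while Ube2z itself differed by 0.22 (adjusted p = 0.169). Atg7, the E1 of autophagy, was also higher (1.02, adjusted p = 0.00225, and 0.0208 without them), whereas Sae1, part of the SUMO E1, and Uba7, the E1 for ISG15, were lower (-0.57 and -0.34, adjusted p = 0.0262 and 0.0406, and 0.1755 and 0.268 without the fourth libraries). The main ubiquitin E1, Uba1, differed by -0.15 (adjusted p = 0.233). Of 8 E2-fold proteins with other names, 1 was higher and 2 were lower, or 37.5%, beside 17.9% of all genes. Birc6, a giant inhibitor of apoptosis with an E2 domain, was higher (0.97, adjusted p = 0.00141, and 0.0269 without the fourth libraries). Cdc34 and the inactive variant Tsg101 were lower (-0.69 and -0.36), but neither passed without these libraries (adjusted p of 0.0775 and 0.204).

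Among 47 E3 ligases and partners, 8 were higher and 3 lower, or 23.4% beside the 17.9% of all genes. Without NA4 and WT4, 5 of them passed: Rnf20, Wac, Ranbp2, Dcun1d1 and Huwe1. Rnf20, which works with Ube2a and Ube2b on histone H2B, held 162, 180, 201 and 151 normalised counts in NA and 27.5, 51.0, 20.49 and 25.8 in WT. All NA libraries lay above all WT libraries, with a difference of 2.51 (SE 0.26, limma adjusted p = 2.46e-05, and 0.000831 without NA4 and WT4). Its adaptor Wac was higher as well (0.64, adjusted p = 0.00135), and its partner Rnf40 just missed (0.54, adjusted p = 0.0502), beside -0.03 for Ube2b and -0.17 for Ube2a. Ranbp2, a SUMO ligase of the nuclear pore, was higher by 1.45 (adjusted p = 0.000802). At the ER, Syvn1, which uses Ube2j1, was higher (0.80), whereas Aup1, which recruits Ube2g2, was lower (-0.42), beside 0.08 for Ube2j1 and -0.08 for Ube2g2. Both calls were lost without NA4 and WT4 (adjusted p of 0.0871 and 0.266). Cul5, whose neddylation uses Ube2f, and Dcun1d1, which helps to attach NEDD8, were higher (0.43 and 0.49), as was the SUMO ligase Pias1 (0.44), with Cul5 and Pias1 lost without NA4 and WT4 (0.206 and 0.216). The HECT ligase Huwe1 was lower, at 411 to 432 against 633 to 745 (-0.70, adjusted p = 0.000191), and so was Herc6, a ligase for ISG15 (-0.62, adjusted p = 0.0420, and 0.212 without NA4 and WT4). Whether an E2 and its partner differed in their response was not tested. The part of sex in these differences, that of Huwe1 included, was not tested either.

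**Figure D5:**
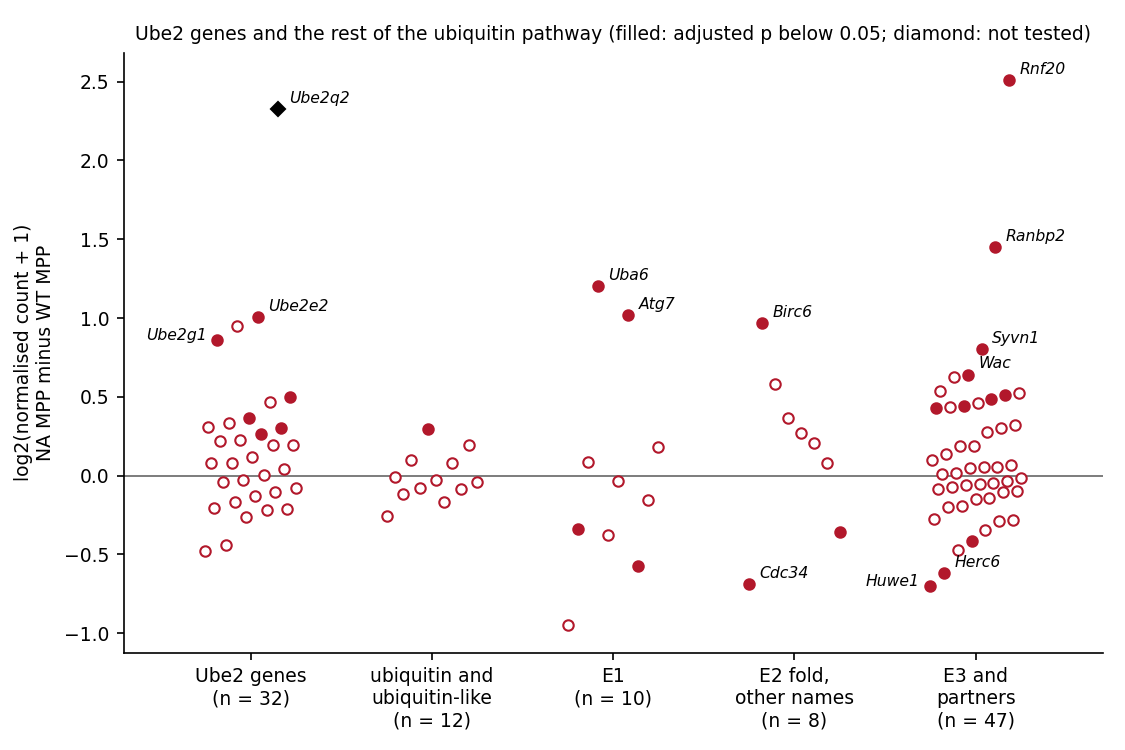
Difference between NA and WT MPPs on the log2(normalised count + 1) scale for the 32 Ube2 genes and the 77 tested genes of 4 other pathway lists; filled circles have an adjusted p below 0.05, the diamond is Ube2q2, which was not tested, and the sideways position only separates the points. Rnf20 at 2.51 is the single pathway gene above Ube2q2 at 2.32.

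Markers of other blood cells differed in part between NA and WT. Over all genes, 10.1% were called higher in NA and 7.87% lower. Of 14 erythroid markers 3 were tested, and Hbb-bt was lower in NA (28.4 to 56.4 against 131 to 185, adjusted p = 6.79e-05, and 0.0028 without NA4 and WT4). The list summed to 4665 to 5356 in NA and 4860 to 5091 in WT, almost wholly from Car2 (4470 to 5131 and 4472 to 4626). Tfrc did not pass but lay at 133.5 to 182 in NA and 190 to 266 in WT without overlap, Car1 was at 0 in NA and 1.13 to 71.9 in WT, and Alas2 and Slc4a1 were at 0 in every library. Of 12 granulocyte and monocyte markers 4 were tested, and Mpo and Prtn3 were lower (adjusted p of 0.0422 and 0.0181, and 0.143 and 0.0881 without NA4 and WT4), with the list at 3123 to 3366 in NA and 3563 to 4593 in WT and Elane at 0. Of 2 tested B and T cell markers 0 passed (1 at an unadjusted p below 0.05), 8 of the 14 were at 0, and the list summed to 102 to 249 in NA and 204 to 285 in WT. Of 7 megakaryocyte and platelet markers 0 passed (1 at an unadjusted p below 0.05), with sums of 2863 to 3117 in NA and 2660 to 2823 in WT. The part of these cells in the Ube2 values was not tested.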

How the data were processed

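RNA of 1000-cell MPP aliquots was amplified as cDNA, tagmented and sequenced on a NextSeq 500. The submitters' processing notes name bcl2fastq, RSEM, DESeq2 and mm10. Versions, annotation and strand use are not given in the sources used here. Although deposited under a name for raw counts, the table holds a signal made by the authors, namely RSEM expected counts over 1 size factor per library. Values above 0.5 were multiples of 1 step per library (within 0.02 of it) in 98.1% to 98.6% of cases, and the column sum over this step gave the depth. Depths of 3876906 to 4916987 reads limit precision for genes with few counts, and read-based limits cover counting error only. All 8 columns were used (0 left out).

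Symbols, positions and transcripts came from GENCODE M21, which named 32916 rows. Samples were grouped by their titles. The 11451 genes that reached 10 normalised counts in 4 or more libraries were tested on log2(value + 1) with limma 3.58.1 in R 4.3.3, NA against WT without covariates, two-sided, with a variance trend and Benjamini-Hochberg adjustment over all of them, at a threshold of 0.05. Fold changes on this scale understate those of low genes. On simulated data of 11451 genes with independent noise, the test found 49% of 200 changed genes of mixed fold. Of its calls there, 5.77% were unchanged genes. Many more genes were called in the data themselves, and NA4 and WT4 may not be independent, so these shares need not hold here. The members, gene lists and classes were chosen with earlier results of these data known. Ube2q2, which the selection names, was not tested. A few genes that enter the counts are not reported here by name.

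Described in full were Ube2q2, Ube2q1 and Ube2ql1, genes with an adjusted p below 0.05, the 5 highest means, the 2 nearest a mean of 10 on each side, and genes that left or joined the calls under an alternative, with the called genes of the pathway lists. Ube2t, Ube2c, Ube2e1 and several pathway partners were singled out after their values were seen. Alternatives were other pseudocounts, filters, scalings (trimmed mean of M values, total count), no variance trend, a library number block, depth class, GC trend removal (97.5% of genes had GC content) and leaving out libraries.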

Additional observations from a re-analysis of the deposited data

Results flagged for a closer look

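In 5 of 64 groups of 4 libraries, 1 library lay far from the others for a Ube2 gene (by Dixon's limit at 95%), where chance gives about 1 in 20 groups, or 3.2. Ube2v1 in NA4 was at 16.5 normalised counts, beside 31.0 to 33.2 in the other NA libraries. Ube2s, the chain-elongating enzyme of the anaphase-promoting complex, was at 478 in NA3, beside 316 to 340.3. Ube2l3 was at 749 in WT3, beside 583 to 608, and at 504 in NA2, beside 531 to 533. Ube2j1, an ER membrane enzyme, was at 419 in WT2, beside 391 to 393. None of these 5 was among the called genes. No cause was tested.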

How the results depend on the processing

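The gap between Ube2q2 and the next Ube2 gene moved by less than the spread between libraries under all 19 alternatives (1.03 to 1.35). Ube2q2 stayed between 2.19 and 2.40. The filters, the fit without a variance trend and the library number block could not move the gap, which stayed at 1.3192. Scaling acts on all genes of a library alike and could barely move it (1.3192 and 1.319). Only the other alternatives bear on how steady the gap was. The count of 6 called among the other 31 was less stable: 3 without a filter on low values, 2 without the variance trend, 1 without NA4 and WT4, and 3 to 6 when single libraries were left out, with 3 without NA2, NA4 or WT4. The pathway count of 19 was 12 without the variance trend, 7 without NA4 and WT4, and 11 to 17 without single libraries (12 without NA4, 11 without WT4). The 2053 calls over all genes became 524 without NA4 and WT4 and 1125 to 2176 without single libraries (1125 without NA4, 1279 without WT4). Small differences changed sign for Ube2b (-0.03), to 0.0015 with depth class as a covariate, 0.0237 without NA3 and 0.0032 without WT3 (-0.0749 to 0.0237 without single libraries), and for Ube2v1 (-0.21), to 0.066 without NA4 and WT4 and 0.0162 without NA4 alone (-0.3056 to 0.0162 without single libraries). For 14 single genes, 216 of the alternative values counted as unchanged, 42 lost the call, 3 gained it and 5 changed sign. Unchanged meant the same direction and side of the threshold, except for Ube2q2, which was not tested. Its 19 alternative values all counted as unchanged because they moved by less than the spread between libraries. The causes were not tested.

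Library numbers did not clearly pair the samples: deviations of same-numbered libraries correlated at 0.15, 0.000524, 0.0034 and 0.24. Those of differently numbered libraries correlated at -0.142 to 0.179, so the value of NA4 with WT4 was the highest. With the numbers as a replicate block 3 of the 31 were called (Ube2d3, Ube2e2 and Ube2g1). Tests with edgeR and DESeq2 on recovered reads were planned and not run, because small fractional assignments kept the values from being whole reads. Total-count scaling moved the median of all genes from -0.01 to -0.08. With 4 libraries a group at this depth, low genes such as Ube2c had wide intervals.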
